A study of Mus musculus with 32 samples.

Results

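Prok2 and Prokr2 encode prokineticin 2, a secreted ligand, and prokineticin receptor 2, through which that ligand acts on migrating olfactory neuroblasts. They were read by 3 of the 25697 probes on the array, taken because the platform annotation gives either gene as the probe's gene. Prok2 had 2 probes (ILMN_3147259 and ILMN_2653528) and Prokr2 had 1 (ILMN_2810904), which makes 2 of the 16593 named genes. Olfactory bulb RNA from mice of a mixed C57/BL6, 129/Ola and CD1 background was measured on 32 Illumina bead arrays, 8 in each of 4 groups. The E18.5 mutants carried Tshz1 GFP/delta and the E18.5 controls Tshz1 GFP/+, all with nestin +/+, so every E18.5 sample had a Tshz1 GFP allele and no Cre. The P30 mutants carried Tshz1 flox/GFP and the P30 controls Tshz1 flox/+, all with nestin +/Cre, so every P30 sample had Cre and a flox allele. Tshz1 is a gene for a transcription factor with zinc fingers. At P30 its loss rests on a Cre driven by Nestin, a gene active in neural progenitors, whereas the E18.5 mutants carried a delta allele and no Cre. The submitters exchanged the control and mutant labels of P30 in a later correction, and every P30 direction given here rests on the corrected labels. Tshz1 was not analysed here, so the mutant labels were not set against the level of the gene they name.

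In the olfactory system, prokineticin 2 is made in the olfactory bulb and draws neuroblasts out of the rostral migratory stream into the bulb, where they become granule and periglomerular interneurons. Prokineticin receptor 2 is a G protein-coupled receptor on these neuroblasts that signals through Gq and Gi to phospholipase C, calcium release and MAP kinases. Mice without either gene have a small bulb with neuroblasts held up in the stream, and variants of the human genes occur in Kallmann syndrome, which joins a lost sense of smell to missing GnRH neurons. In the suprachiasmatic nucleus Prok2 is also an output of the circadian clock, which acts through E-boxes in its promoter.

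The promoter windows of both genes are shown because both transcripts were lower in the P30 mutants and because the motifs in the windows differ. They come from RefSeq (GRCm38.p6) and run up to the last base before the annotated start, with capitals marking each match, on either strand, of the E-box CACGTG, the AP-1 site TGANTCA and the homeodomain core TAAT. The motifs as matched do not overlap.
Prok2, 250 bases at chr6:99726393-99726642, minus strand: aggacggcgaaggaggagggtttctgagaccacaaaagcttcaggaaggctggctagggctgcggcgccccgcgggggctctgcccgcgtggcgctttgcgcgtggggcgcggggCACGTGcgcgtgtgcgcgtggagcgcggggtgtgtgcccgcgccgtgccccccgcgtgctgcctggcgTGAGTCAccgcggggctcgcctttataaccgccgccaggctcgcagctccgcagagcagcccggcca
Prokr2, 195 bases at chr2:132385503-132385697, minus strand: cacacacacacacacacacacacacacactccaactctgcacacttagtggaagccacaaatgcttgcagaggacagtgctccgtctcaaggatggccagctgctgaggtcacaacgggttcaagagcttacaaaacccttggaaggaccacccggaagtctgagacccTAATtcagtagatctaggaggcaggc
The Prok2 window held 1 CACGTG, 135 bases before the start, which 6.02% of 32851 RefSeq windows of that length contain. It also held 1 TGANTCA match, 67 bases before the start, found in 6.75% of those windows, and no TAAT, which 54.9% contain. The Prokr2 window held 1 TAAT, 26 bases before the start, as do 49.5% of windows of 195 bases, and neither CACGTG (4.17%) nor TGANTCA (5.37%). GC content was 73.6% in the Prok2 window and 52.8% in the Prokr2 window, against a median of 52.4% over all windows of 250 bases. These matches describe the letters of the windows and were not tested as binding sites.

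A probe counts as detected on an array where its detection p-value, set by the negative control beads, is under 0.05. By that measure 40.1 to 49.3% of the probes were detected on the P30 arrays and 49.3 to 55.2% on the E18.5 arrays, with median raw intensities of 100.2 to 130 at P30 and 132 to 181 at E18.5. Each age was run on 2 chips of its own, called A and B here, with 4 mutants and 4 controls each, so age and chip cannot be told apart. On the first principal component P30 mutant replicates 1 and 2 and E18.5 control replicates 6 and 8 lay apart from the other arrays of their age, and the results were also computed without them. All 8 mitral and tufted cell markers looked for were on the array, with 8 passing the detection filter at E18.5 and 7 at P30, where Lhx5 was not detected on any array. The olfactory sensory neuron marker Omp was not detected on any array of either age, nor was Calb1, a periglomerular marker. No label says whether each replicate was another animal, and p-values therefore cover the spread between arrays, which may be technical.

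The ligand was examined first. The brighter Prok2 probe, ILMN_3147259, gave lower values in the mutants at both ages, and the difference passed the test at P30 and not at E18.5. Its raw intensity was 109 to 200 in P30 mutants and 199 to 420 in P30 controls, and 148 to 236 in E18.5 mutants and 150 to 299 in E18.5 controls, so the lowest values lay near the array medians. Values below are log2 intensities after background correction and quantile normalization within an age. In bulk tissue, fewer cells that make a transcript and less transcript per cell cannot be told apart, and this holds for every level given here.

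At E18.5, Prok2 read 5.85 at the lowest, 6.13 at the median and 6.83 at the highest in the 8 mutants, against 6.49, 6.71 and 7.27 in the 8 controls. Of the 8 mutants, 7 lay below every control, and the remaining mutant, replicate 8, lay inside the control range. The share of all genes with such a pattern was not counted. The probe was detected on 7 of 8 mutant arrays and on 8 of 8 control arrays. The means were 6.19 ± 0.34 in mutants and 6.79 ± 0.27 in controls (SD, n = 8 each), a difference of -0.60 (SE 0.15, 95% interval -0.91 to -0.29). This had an unadjusted p of 0.000676 and an adjusted p of 0.0905 in limma over 10852 genes, and so missed the threshold of 0.05, while 0.507% of all tested genes passed it as lower. The exact permutation test over the 16 arrays gave p = 0.00264 (two-sided, smallest possible 0.000155). Within chip A the mutants averaged 5.92 and the controls 6.75, a difference of -0.83 (exact p = 0.0286, the smallest that 4 against 4 allows). Within chip B the averages were 6.46 in mutants and 6.83 in controls, a difference of -0.37 (exact p = 0.114). Prok2 passed at E18.5 in 4 of 29 alternatives. These were chip as a block (-0.60, limma adjusted p = 0.0364), chip A alone (-0.79, limma adjusted p = 0.0395), array quality weights (-0.64, limma adjusted p = 0.0298) and without mutant replicate 8 (-0.69, limma adjusted p = 0.0187). In the other 25 it did not pass, with a limma adjusted p up to 0.992 on chip B alone (-0.39).

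At P30 the same Prok2 probe read 5.26 at the lowest, 5.58 at the median and 6.61 at the highest in mutants, against 6.93, 7.59 and 8.14 in controls. Every mutant lay below every control, a pattern that 0.594% of the 9928 genes tested at P30 showed. The 3 highest mutants were replicates 5, 6 and 7 of chip B, and these were also the only mutants with the probe detected, against detection in 8 of 8 controls. On the other 5 mutant arrays Prok2 was not above background, and the fitted fall depends in part on the background. Prok2 fell to 5.82 ± 0.51 in P30 mutants, against 7.59 ± 0.40 in P30 controls (SD, n = 8 each). The difference was -1.77 (SE 0.22, 95% interval -2.21 to -1.32), with a limma adjusted p of 1.74e-05, where 2.33% of all tested genes passed as lower. The fitted ratio is 3.40-fold, and with each array raised to at least the lowest signal of its detected probes the level was 2.91-fold lower. The difference was -1.02 without background correction and -2.54 in the deposited normalized table. The exact permutation test gave p = 0.000155, the smallest possible. The difference was -1.87 within chip A and -1.67 within chip B, with no overlap of mutants and controls on either chip (exact p = 0.0286 each).

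The other Prok2 probe, ILMN_2653528, is annotated to the same RefSeq transcript and lay at the background. At P30 it was detected on 0 of 8 mutant arrays and 3 of 8 control arrays, and at E18.5 on 0 of 8 mutants and 2 of 8 controls, so it was not among the tested probes. It read 4.79 to 5.49 in P30 mutants and 5.30 to 6.23 in P30 controls, and 4.93 to 5.53 in E18.5 mutants and 5.09 to 6.41 in E18.5 controls. These ranges overlapped at both ages. The mean difference was -0.65 at P30 (exact permutation p = 0.00109) and -0.27 at E18.5 (exact permutation p = 0.151). No conclusion is drawn from a probe that was not above background on any mutant array.

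The receptor gene Prokr2, read by ILMN_2810904, was lower in the mutants at both ages. At E18.5 it read 7.97 at the lowest, 8.50 at the median and 8.91 at the highest in the 8 mutants, against 9.15, 9.73 and 10.07 in the 8 controls. Every mutant lay below every control, as was the case for 0.304% of the genes tested at E18.5, and the probe was detected on all 16 arrays. Prokr2 fell to 8.50 ± 0.29 in E18.5 mutants, against 9.71 ± 0.27 in E18.5 controls (SD, n = 8 each). The difference was -1.21 (SE 0.14, 95% interval -1.50 to -0.92, limma adjusted p = 8.64e-05). By p it ranked 4th and by size of fall 10th among 10852 genes. The difference was -1.34 within chip A and -1.08 within chip B (exact p = 0.0286 each). With chip B fitted alone across all genes it was -1.08 with a limma adjusted p of 0.261, in a fit that called 5 genes in all.

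At P30 Prokr2 read 5.98 at the lowest, 7.41 at the median and 8.11 at the highest in mutants, against 7.82, 8.25 and 8.82 in controls. The mutants spread widely, and 5 of 8 lay below every control while 3 lay inside the control range. The lowest value, 5.98, was that of mutant replicate 1, the only array of the series on which the Prokr2 probe was not detected. Prokr2 fell to 7.35 ± 0.70 in P30 mutants, against 8.31 ± 0.35 in P30 controls (SD, n = 8 each), a difference of -0.96 (SE 0.25, 95% interval -1.47 to -0.44). The level was 1.94-fold lower with a limma adjusted p of 0.0261 and an exact permutation p of 0.00264, and it ranked 326th by p and 117th by size of fall among 9928 genes. Within chip A the mutants averaged 7.03 and the controls 8.54, a difference of -1.51 (exact p = 0.0571). Within chip B the mutants averaged 7.68 and the controls 8.08, a difference of -0.40 (exact p = 0.114).

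The P30 call of Prokr2 was lost in 10 of 29 alternatives, in all of which the difference stayed negative. Without mutant replicates 1 and 2 the difference was -0.67 (limma adjusted p = 0.0517), and on chip B alone it was -0.41 (limma adjusted p = 0.464). Leaving out control replicate 1 (-0.89, limma adjusted p = 0.0613), control replicate 2 (-0.91, limma adjusted p = 0.0582) or mutant replicate 3 (-0.91, limma adjusted p = 0.0521) also ended it. By contrast, the P30 fall of Prok2 passed in all 29 alternatives, with limma adjusted p-values up to 0.0035.

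**Figure D1:**
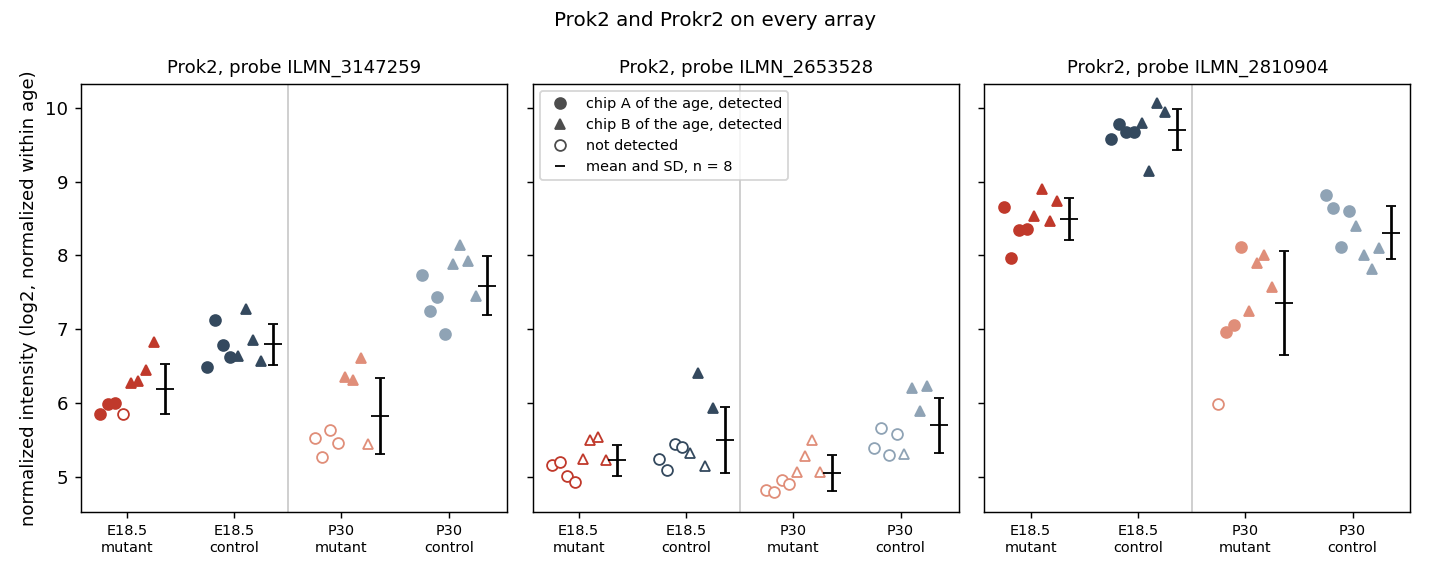
Log2 normalized intensity (y axis, normalized within each age) of the 3 probes on every array, with mutants left of controls at each age, circles for chip A, triangles for chip B, open symbols where the probe was not detected, and bars for mean ± SD (n = 8). The P30 mutants lie between 5.26 and 6.61 for Prok2, below all P30 controls, and the E18.5 mutants lie between 7.97 and 8.91 for Prokr2, below all E18.5 controls.

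**Figure D2:**
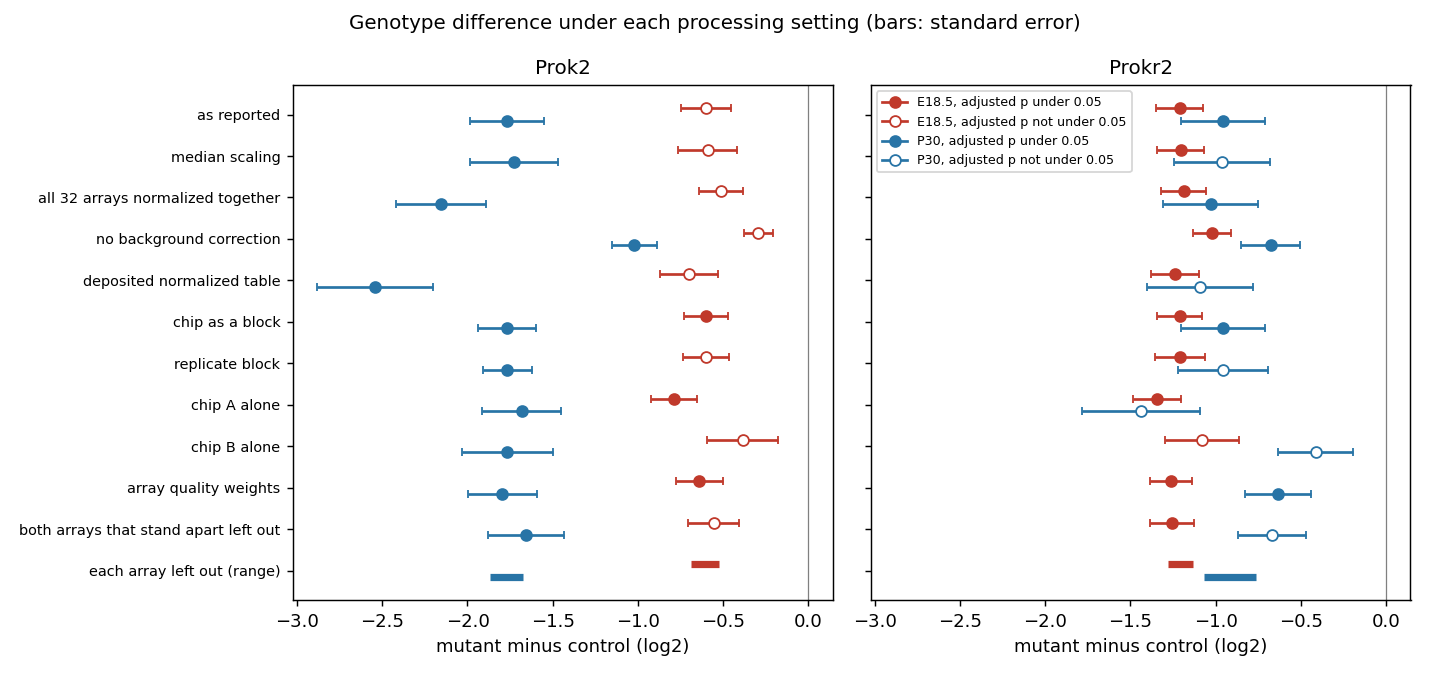
Mutant minus control difference (x axis, log2) of Prok2 and Prokr2 at each age under the processing settings named on the y axis, with SE bars, filled symbols where the limma adjusted p was under 0.05, and thick bars for the range when each array is left out in turn. All values lie below 0, Prok2 at P30 is filled throughout, and Prokr2 at P30 is open in several settings.

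Prokr2 was among 32 genes lower in the mutants at both ages, each with a limma adjusted p under 0.05, of 9613 genes tested at both (0.333%). Prok2 was not, since it passed at P30 and not at E18.5. The other members of that set included Gng4 and Nrgn, both markers of granule cells, the zinc finger factor Sp7, the neurotensin receptor Ntsr1 and the BMP antagonist Nog. In the opposite direction 3 genes were higher at both ages (0.0312%).

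**Figure D3:**
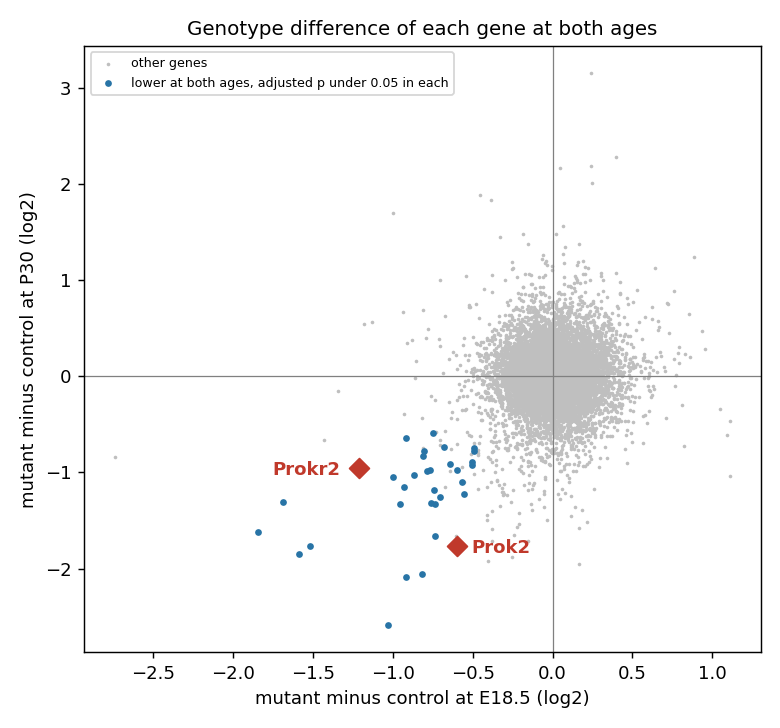
Mutant minus control difference (log2) at E18.5 (x axis) and at P30 (y axis) for the 9613 genes tested at both ages, with the 32 genes lower at both ages in blue and Prok2 and Prokr2 as red diamonds. Prok2 lies at -1.77 for P30 and -0.60 for E18.5, and Prokr2 lies at -0.96 for P30 and -1.21 for E18.5.

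Whether the genotype effect differed between the ages was tested with all 32 arrays normalized together. On this scale the Prok2 effect was -2.15 (SE 0.21) at P30 and -0.51 (SE 0.21) at E18.5, and their difference was -1.64 (SE 0.30, 95% interval -2.26 to -1.03). It passed with a limma adjusted p of 0.00127, where 1.85% of 11312 genes passed (0.813% with a negative difference), and ranked 38th by p. With median scaling in place of quantile normalization it was -1.14 and did not pass (limma adjusted p = 0.0905), and without background correction it was -1.06 (limma adjusted p = 0.000341). On this scale Prok2 averaged 6.44 in E18.5 controls and 8.37 in P30 controls. The other Prok2 probe, not detected on any mutant array, read 5.13 in E18.5 mutants. The brighter probe averaged 5.93 in E18.5 mutants, where 7 of 8 arrays detected it, and 6.21 in P30 mutants, where 3 of 8 did. The part of distance from the background in the age difference was not tested. The alleles, the use of Cre and the chips differ between the ages, and their part cannot be told apart from that of age. The Prokr2 effect was -1.03 (SE 0.23) at P30 and -1.19 (SE 0.23) at E18.5. The Prokr2 difference of 0.16 did not pass (95% interval -0.49 to 0.81, limma adjusted p = 0.88), and its interval leaves room for a difference in either direction.

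Levels were also set side by side across the ages, where the control groups differ in genotype (Tshz1 flox/+ with nestin +/Cre at P30 and Tshz1 GFP/+ with nestin +/+ at E18.5) and in chip as well as in age. Prok2 averaged 8.37 ± 0.43 in P30 controls and 6.44 ± 0.24 in E18.5 controls (log2, all arrays normalized together, SD, n = 8 each), with ranges of 7.64 to 8.94 in P30 controls and 6.17 to 6.86 in E18.5 controls. Every P30 control lay above every E18.5 control, as for 11.6% of the 11312 genes. Before normalization the ranges overlapped, with raw intensities of 199 to 420 in P30 controls and 150 to 299 in E18.5 controls. The rise of 1.93 (SE 0.21), or 3.80-fold, passed with a limma adjusted p of 1.3e-09, where 23.9% of all genes passed with a change of at least 2-fold, and it was 1.20 without background correction. In the mutants Prok2 averaged 6.21 ± 0.70 at P30 and 5.93 ± 0.28 at E18.5, a difference of 0.28 (95% interval -0.15 to 0.72, limma adjusted p = 0.252), where 23.4% of all genes passed. The raw medians ran the other way, at 131.7 in P30 mutants and 170.2 in E18.5 mutants. The probe was detected on 3 of 8 P30 mutants and 7 of 8 E18.5 mutants.

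Prokr2 averaged 9.12 ± 0.36 in P30 controls and 9.19 ± 0.27 in E18.5 controls, a difference of -0.08 (95% interval -0.54 to 0.39, limma adjusted p = 0.786). With median scaling, which moved the median of all genes to -0.53, it was -0.88 (limma adjusted p = 0.000862), still under 2-fold. In the mutants Prokr2 averaged 8.09 ± 0.81 at P30 and 8.01 ± 0.27 at E18.5, a difference of 0.08 (95% interval -0.38 to 0.54, limma adjusted p = 0.77), whose sign turned in 4 of 40 alternatives. The receptor thus had no detectable change with age under quantile normalization, whereas the ligand was higher at P30 in the controls. Age, genotype and chip cannot be told apart in these differences.

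Ordered by mean over the 4 groups, the brighter Prok2 probe ran from P30 controls (8.37) over E18.5 controls (6.44) and P30 mutants (6.21) to E18.5 mutants (5.93). Only the first step exceeded the spread (exact permutation p = 0.0014, adjusted over the 9 neighbour pairs of the 3 probes), and the next steps did not (adjusted exact p = 0.59 and 0.547). Prokr2 ran from E18.5 controls (9.19) over P30 controls (9.12) and P30 mutants (8.09) to E18.5 mutants (8.01). Here the step between P30 mutants and P30 controls exceeded the spread (adjusted exact p = 0.0119), and neither the step above it (0.815) nor the step below it (0.881) did. With all arrays normalized together, the P30 controls thus stood above the other groups for Prok2. The Prok2 order of the mutant groups depends on that normalization, as the raw median was 131.7 in P30 mutants and 170.2 in E18.5 mutants. For Prokr2, on the same scale, the mean of the controls of each age stood above that of the mutants of each age. The Prokr2 order depends on that normalization, as the raw median was 476.5 in E18.5 mutants and 404 in P30 controls. Those 2 groups were not tested against each other.

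Within a group, Prok2 and Prokr2 were also compared from array to array over its 8 arrays. In P30 mutants Pearson's r was 0.41 (exact permutation p = 0.319) and Spearman's rho 0.31 (exact permutation p = 0.462). In P30 controls r was -0.478 (exact permutation p = 0.229) and rho -0.595 (exact permutation p = 0.132). No correlation passed at P30, and the same held at E18.5. In E18.5 mutants r was 0.476 (exact permutation p = 0.236) and rho 0.429 (exact permutation p = 0.299). In E18.5 controls r was -0.453 (exact permutation p = 0.264) and rho -0.0952 (exact permutation p = 0.84). Adjusted over the 4 groups, each Pearson p was 0.319 and the Spearman p-values were 0.529 to 0.84. Without the 2 arrays farthest from the median of Prok2, r was 0.329 in P30 mutants, -0.229 in P30 controls, 0.463 in E18.5 mutants and 0.53 in E18.5 controls, so the sign in E18.5 controls rested on those arrays. The points of a group share chips, so the values also carry any chip difference.

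**Figure D4:**
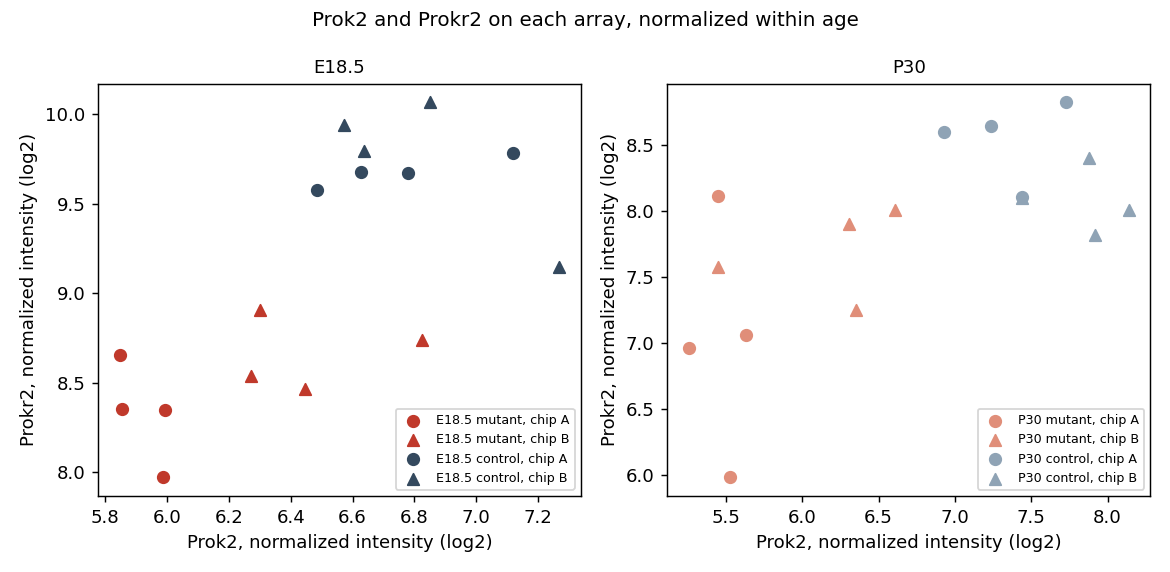
Prok2 (x axis) against Prokr2 (y axis), both as log2 intensity normalized within the age, on each of 16 arrays at E18.5 and at P30, with mutants in red tones and controls in blue tones, circles for chip A and triangles for chip B. Of the mutants, 1 lies inside the Prok2 range of the controls at E18.5 (replicate 8) and 3 lie inside the Prokr2 range at P30, and r within the 4 groups ran from -0.478 to 0.476.

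The remaining prokineticin genes were at or near the background. Prok1, the other prokineticin ligand, was detected on 0 of 8 arrays in every group. Prokr1, the other receptor, had 2 probes, and ILMN_1228536 was not detected on any array. Its probe ILMN_2612018 was detected on 8 of 8 mutant and 7 of 8 control arrays at E18.5, with means of 6.19 ± 0.18 in mutants and 6.01 ± 0.16 in controls (SD, n = 8 each), and on 0 of 8 arrays of either P30 group. The E18.5 difference of Prokr1 was 0.18 (SE 0.10, limma adjusted p = 0.612). Thus, of the prokineticin genes measured, Prokr2 fell at both ages and Prok2 fell at P30. Mrap2, an accessory protein of the receptors, was not matched by name and was not analysed here.

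Downstream of the receptor, the list of G protein, phospholipase C and kinase genes had 14 tested members of 24 at each age. At P30, 1 rose and 2 fell, against 4.33% of all genes called, 2% higher and 2.33% lower. The fallers were Map2k1, the MAP kinase kinase MEK1 (-1.42, SE 0.21, limma adjusted p = 0.00019), and Prkca, a protein kinase C (-1.14, SE 0.25, limma adjusted p = 0.00937). The riser was Itpr3, a calcium release channel gated by inositol trisphosphate (0.75, SE 0.18, limma adjusted p = 0.0129). The list's median difference at P30 was 0.30, with 11 positive and 3 negative, against 0.01 over all genes. At E18.5 limma called 0 of the 14, against 0.581% of all genes, and 1 had an unadjusted p under 0.05. The share of all genes at that unadjusted level was not counted. Counts at that level, here and in the lists below, are therefore not read as differences. The E18.5 median was -0.06, against -0.01 over all genes.

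Other cues and receptors of bulb neuroblasts were set beside the prokineticin pair. At E18.5 limma called 0 of 23 tested members, with 2 higher and 2 lower at an unadjusted p under 0.05, and their median difference was 0.13, with 19 positive. At P30, of 19 tested members 1 rose and 1 fell, close to the 2% of all genes that rose and 2.33% that fell. Gdnf, a neurotrophic factor that attracts neuroblasts, fell (-1.08, SE 0.17, limma adjusted p = 0.000422), and Cxcr4, the receptor of the chemokine Cxcl12, rose (0.73, SE 0.18, limma adjusted p = 0.0172). Gdnf averaged 5.33 in P30 mutants and 6.41 in P30 controls, and Cxcr4 averaged 6.63 and 5.89. The lower of these lie near the background. Prok1, not detected on any array, averaged 4.68 in P30 mutants and 4.70 in P30 controls. The Prok2 probe ILMN_2653528 averaged 5.05 in P30 mutants (0 of 8 detected) and 5.69 in P30 controls (3 of 8 detected). Nearness to the background limits the Gdnf and Cxcr4 differences, and Gdnf was not detected on any E18.5 array. Robo1, a Slit receptor, had the smallest p of this list at E18.5 (0.27, limma adjusted p = 0.331). Reelin (Reln), which promotes detachment of neuroblasts in the bulb, read 0.65 higher in P30 mutants and did not pass (limma adjusted p = 0.139). This list holds no prokineticin gene, and none of its 23 tested members passed at E18.5, where 0.581% of all genes were called.

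The other genes of olfactory and GnRH neuron disorders had 10 tested members, and limma called 0 of them at each age, with 1 at P30 and 0 at E18.5 at an unadjusted p under 0.05. Interneuron lineage transcription factors had 12 tested members. At P30, 2 of them fell, where 2.33% of all genes fell. Both were homeodomain factors of the TALE class, Meis2 (-0.67, SE 0.18, limma adjusted p = 0.0269) and Pbx3 (-0.63, SE 0.16, limma adjusted p = 0.0198). At E18.5 limma called 0 of the 12, while 3 higher and 1 lower had an unadjusted p under 0.05. Of the circadian clock genes limma called 0 of 11 at P30, with 3 at an unadjusted p under 0.05, and 0 of 12 at E18.5, with 0 at that level. The unadjusted counts of these lists have no share over all genes beside them and are not read as differences. Meis2 and Pbx3 were thus the members of these 3 lists that passed. Over all genes limma called 4.33% at P30 and 0.581% at E18.5. At those shares a list of 10 to 12 members would hold few or no calls.

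**Figure D5:**
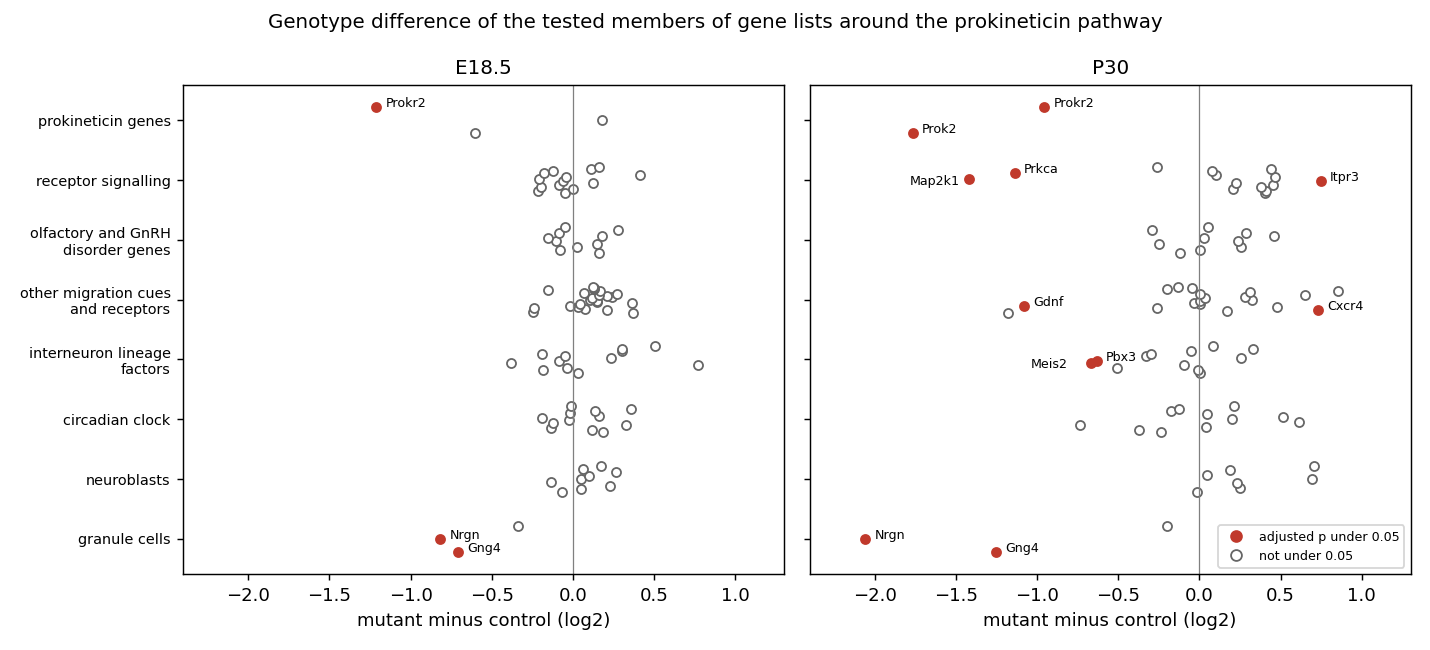
Mutant minus control difference (x axis, log2) of each tested member of 8 gene lists (rows) at E18.5 and P30, with filled red points where the limma adjusted p was under 0.05 and gene names beside them. Prokr2, Gng4 and Nrgn are the filled points at E18.5, and Prok2 has the lowest value of the prokineticin genes at P30 (-1.77).

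Markers of the cells that carry or receive the signal were measured alongside. Of the neuroblast and immature neuron markers limma called 0 of 7 at P30 and 0 of 9 at E18.5, against 4.33% and 0.581% of all genes. At an unadjusted p under 0.05, a level whose share over all genes was not counted, 2 of these markers were higher at P30 and 0 differed at E18.5. Their summed linear intensity was 14030 to 22540 in P30 mutants and 12380 to 17600 in P30 controls, and Tubb3 and Cd24a were not detected at P30. At E18.5 the sum was 106000 to 116200 in mutants and 94140 to 115100 in controls. The neuroblast sums overlapped between genotypes at both ages, and the part of neuroblast number in the Prokr2 differences was not tested. Some granule cell markers were lower. Of 3 tested members 2 fell at each age, where 2.33% of all genes fell at P30 and 0.507% at E18.5. They were Gng4 (-1.25 at P30 and -0.71 at E18.5) and Nrgn (-2.06 at P30 and -0.82 at E18.5), while Tpbg did not pass (-0.20 at P30, limma adjusted p = 0.73, and -0.34 at E18.5, limma adjusted p = 0.57). The summed level of these markers was 2892 to 4551 in P30 mutants and 4886 to 8832 in P30 controls, and 3027 to 4310 in E18.5 mutants and 4670 to 5954 in E18.5 controls. It did not overlap between genotypes at either age, though it includes the called Gng4 and Nrgn. Synpr and Camk4 were not detected on any array. The part of granule cell number in the Prok2 and Prokr2 differences was not tested.

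Further cell markers moved at P30, when 2% of all genes rose and 2.33% fell. Of 4 striatal markers 1 rose, Ppp1r1b (0.81, SE 0.17, limma adjusted p = 0.00435), and the sum over the list was 1151 to 1868 in P30 mutants and 752 to 1116 in P30 controls, without overlap. At E18.5 the striatal sums overlapped, with 800.5 to 1203 in mutants and 597 to 1050 in controls. Of 7 periglomerular markers 4 rose and 1 fell at P30. The dopamine transporter Slc6a3 (1.35), the peptide precursor Trh (1.19), and the dopamine-synthesis enzymes Ddc (1.00) and Th (0.70, limma adjusted p = 0.0464) rose, and Kcnip1, a partner of potassium channels, fell (-0.98). The list had sums of 13840 to 28210 in P30 mutants and 10730 to 16940 in P30 controls, which overlapped. Of the marker sums given here, those of granule and striatal markers separated P30 mutants from P30 controls. These linear sums are weighted to the brightest members and include the called Gng4, Nrgn and Ppp1r1b. Ppp1r1b averaged 10.17 in P30 mutants, against 6.19 to 7.26 for the other striatal markers. The separation therefore does not stand apart from those single-gene calls and is not a measure of cell number. Of 6 microglial markers 2 rose, C1qa (1.06) and C1qb (1.06), with sums of 2052 to 5076 in P30 mutants and 1256 to 2426 in P30 controls. Of 8 astrocyte markers 2 rose, Gfap (1.48) and Vim (0.82), with sums of 34630 to 44370 in P30 mutants and 28420 to 40230 in P30 controls. Of 7 mitral and tufted cell markers 2 rose, Slc17a7 (1.12) and Tbr1 (0.95), and Doc2g fell (-0.72), with sums of 13280 to 17980 in P30 mutants and 10770 to 15750 in P30 controls. The microglial, astrocyte and mitral sums overlapped between genotypes. At E18.5 Th, which rose at P30, fell (-0.81, SE 0.14, limma adjusted p = 0.00464), with list sums of 14030 to 18420 in mutants and 13450 to 16550 in controls. The part of these cell types in the differences of Prok2 and Prokr2 was not tested. In the lists for sensory neuron axons, dividing cells, oligodendrocytes, endothelium, meninges, cortical neurons and suprachiasmatic neurons limma called 0 members at either age, with 0 at P30 and 3 at E18.5 at an unadjusted p under 0.05. These lists had at most 5 tested members each, where limma called 4.33% of all genes at P30 and 0.581% at E18.5. Suprachiasmatic markers had 0 tested at E18.5 and 1 at P30, sensory axon markers 1 and 2, and dividing cells 1 at P30. Such small lists cannot show that these cell types were unchanged.

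Genes whose values ran most like the pair were ranked by Pearson's r over the 16 arrays of an age, as a description that includes the genotype difference. At P30, Prok2 ran closest to Magi3, a scaffold protein of cell junctions (0.922), Cpne4, a calcium-dependent membrane-binding copine (0.914), Stard8 (0.903), Akr1c18, an aldo-keto reductase (0.902), and an unnamed probe (0.899). At E18.5 it ran closest to Cck, the peptide cholecystokinin (0.908), Tceal6 (0.899), Wdr54 (0.837), Paxx (0.837) and Crabp1, a retinoic acid-binding protein (0.836). The Prok2 lists of P30 and E18.5 shared 0 genes. Prokr2 ran at P30 closest to Tmem107 (0.877), Ccdc134 (0.857), Ing2 (0.857), Lrba (0.848) and Fam126a (0.845). At E18.5 it ran closest to Sp7 (0.906), Trhde, an enzyme that degrades thyrotropin-releasing hormone (0.898), Ntsr1 (0.881), Cpne4 (0.861) and C1ql2, a secreted C1q-like protein of synapses (0.858). All of these genes had lower means in the mutants of that age. The r between Prok2 and Prokr2 was 0.659 at P30 and 0.681 at E18.5, which placed Prokr2 303rd at P30 and 203rd at E18.5 among the genes most like Prok2.

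With the group means taken out, a different set of genes led. For Prok2 these were Adamts1 (0.876), Spop (0.868) and Nrep (0.843) at P30 and Slc15a3 (0.913), Sdhaf1 (0.885) and Tceal6 (0.865) at E18.5. For Prokr2 they were Golga4 (0.831), Sema6d (0.807) and Apeh (0.804) at P30 and Sptssa (0.88), Tmem44 (0.875) and Terf2ip (0.849) at E18.5. Of these, only Tceal6 also appeared in the list made with group means left in. The r between Prok2 and Prokr2 was then 0.158 at P30 and 0.068 at E18.5, lower at each age than with the group means left in.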

How the data were processed

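Total RNA from olfactory bulb was made into biotinylated cRNA for Illumina bead arrays, and per the submitters' processing notes GenomeStudio (version not given in the sources used here) was used. Per the file headers, the deposited raw table gives each probe's average intensity on each array with its detection p-value. The authors' deposited normalized table, with an unstated method and 25.7% of its intensity values below 0, served as an alternative. The platform annotation gave 1 gene for 23978 probes and none for 1719.

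Raw intensities were processed with neqc (limma 3.58.1 in R 4.3.3: background from the detection p-values, offset 16, quantile normalization, log2), within each age for the genotype comparisons and over all 32 arrays for comparisons of the ages. A probe was tested if 4 or more arrays of the fit had a detection p under 0.05, and the probe of highest mean stood for its gene. lmFit and eBayes were used, two-sided, with Benjamini-Hochberg adjustment over all genes and a threshold of 0.05, for age also with a change of at least 2-fold. Single probes were tested by exact permutation over arrays. Standard errors and intervals are those of the fit. The script was tested on simulated data. The number of arrays limits the precision.

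Alternatives were median scaling, joint normalization, no background correction, the deposited table, other detection filters, every probe on its own, chip and replicate blocks, single chips, array weights and leaving out each array. Those without the arrays that lay apart, and those for the mutant age comparison, were chosen after seeing the data. At E18.5 the same-numbered mutant and control deviated together in 8 of 8 pairs (r 0.118 to 0.355), and the replicate block changed neither call of Prok2 and Prokr2. At P30 they did so in 6 of 8 (r -0.0704 to 0.417). Same-numbered arrays share a chip, so these r values also carry any chip difference and cannot show whether the numbers pair samples. The main fits used no pairing.

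The members and gene lists were chosen with earlier results of these data known. Named genes were the members, the other prokineticin genes, the called members of each list, and the 5 genes of highest r by value and 3 by deviation. Robo1, Reln, Tpbg and the genes named among those lower at both ages were chosen after their values were seen. Promoters came from RefSeq tables. Figures were drawn with matplotlib 3.10.9.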

Additional observations from a re-analysis of the deposited data

Results flagged for a closer look

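The genotype difference of Prok2 was larger at P30 than at E18.5 when the ages were tested against each other. The interaction was -1.64 on the log2 scale (SE 0.30, limma adjusted p = 0.00127), from effects of -2.15 at P30 and -0.51 at E18.5. At P30 every mutant lay below every control, as for 0.594% of the genes tested. At E18.5, 7 of 8 mutants did, a pattern whose share over all genes was not counted. The alleles, the use of Cre and the chips differ between the ages and cannot be told apart from age. Prok2 averaged 6.44 in E18.5 controls and 8.37 in P30 controls, and its probe was detected on 7 of 8 E18.5 mutants and 3 of 8 P30 mutants. The part of distance from the background in the age difference was not tested. The interaction did not pass with median scaling (-1.14, limma adjusted p = 0.0905), and its limma adjusted p ran from 8.06e-05 to 0.0905 over 41 alternatives. Among 12 sets of arrays, 3 probes in 4 groups, 0 held an array that stood apart from the rest by Dixon's test, which chance would give in about 1 set in 20.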

How the results depend on the processing

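Prok2 at P30 passed in all 29 alternatives (-2.54 to -1.02), and Prok2 at E18.5 stayed negative in all 29 (-0.79 to -0.29). Prok2 at E18.5 did not pass in 25 of the 29. It passed with chip as a block (-0.60), on chip A alone (-0.79), with array quality weights (-0.64) and without mutant replicate 8 (-0.69). Leaving out an array gave -0.69 to -0.53 for Prok2 at E18.5. Prokr2 at E18.5 passed in 28 of 29 and not on chip B alone (-1.08). Prokr2 at P30 did not pass with median scaling (-0.96), the deposited normalized table (-1.09), no filter on detection (-0.96), the replicate block (-0.96), chip A alone (-1.44), chip B alone (-0.41) or without P30 mutant replicates 1 and 2 (-0.67), and leaving out an array gave -1.07 to -0.76. The age difference of the Prok2 effect did not pass with median scaling (-1.14) and was -1.06 without background correction. The Prokr2 difference between P30 and E18.5 mutants turned to -0.63 with median scaling and to -0.0366, -0.00565 and -0.0217 without P30 mutant replicates 4, 6 and 7, and leaving out an array gave -0.0366 to 0.315. The correlation of Prok2 and Prokr2 in E18.5 controls turned to 0.53 without the 2 arrays farthest from the Prok2 median. The cause of these changes was not tested.

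Counts of genes past the threshold moved by over 1.5 times in these settings. At E18.5, 63 became 41 on chip A alone and 5 on chip B alone. At P30, 430 became 137 on chip A, 194 on chip B and 736 with array quality weights (391 higher, 345 lower). For the age difference of the effects, 209 became 84 with median scaling, 380 with the replicate block and 342 with array quality weights. For P30 against E18.5, 2698 in controls became 1503 without background correction, and 2644 in mutants became 1432. Median scaling gave 4125 in mutants (540 higher, 3585 lower) and 4004 in controls (557 higher, 3447 lower), against 1278 higher and 1420 lower in controls as reported.

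The replicate block as a paired fit left Prok2 at P30 at -1.77 and called 539 genes at P30 and 62 at E18.5. Whether the numbers pair samples is not known. At P30, 2 of 8 mutants and 4 of 8 controls correlated best with their own number, and at E18.5 3 of 8 mutants and 2 of 8 controls did. Prok2 signals near the background limit its fold changes.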
